A study of Caenorhabditis elegans with 2 samples.

Results

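The 207 sites described here are LIN-38 binding summits that lay in the untranslated regions (UTRs) of protein-coding genes and away from promoters. They were taken from 5405 nuclear summits by position alone. A summit qualified when it fell in an annotated 5′ or 3′ UTR and in no coding sequence. It also had to lie outside every protein-coding promoter window, which ran from 500 bp upstream to 200 bp downstream of an annotated 5′ end, and over 200 bp from any tRNA, snRNA, snoRNA, rRNA or microRNA gene. The 207 summits made up 3.83% of the total (95% Wilson interval 3.35 to 4.38). Of these, 21 lay in a 5′ UTR and 187 in a 3′ UTR. The summit at rsp-1, an SR-family splicing factor gene, counted in both because it also fell in a 3′ UTR. The summits belonged to 199 genes.

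LIN-38 was mapped by chromatin immunoprecipitation and sequencing (ChIP-seq) in Caenorhabditis elegans of strain RW12236. In these animals CRISPR had placed TY1, EGFP and 3xFLAG tags on the endogenous lin-38 gene on chromosome II (allele st12236), and chromatin was recovered through the EGFP with an antibody to GFP per the description, while the antibody field of the labels names lin-38. The 2 biological replicates formed 1 group of whole L4 larvae at 48 hours, grown from starved L1 larvae obtained by bleaching. Nuclei of all tissues were therefore pooled, the control libraries were not analysed here, and the files give no read counts, so the depth is unknown.

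LIN-38 belongs to the synMuv A class of nuclear factors, a class that acts redundantly with the synMuv B class, including the Rb-related DREAM complex, to keep epidermal cells from adopting vulval fates. UTRs are the transcribed ends of a messenger RNA that are not translated, and a ChIP-seq summit in a UTR marks DNA, not RNA. In worms many messages are trans-spliced to a leader near the start codon, so that the annotated 5′ end of a gene is often not the base where transcription starts. Worm genes are also closely spaced, and the 3′ UTR of a gene often borders or overlaps the 3′ UTR of a neighbour read from the other strand.

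The sequences at some of the highest summits are given first, to show the bases under the binding. For 4 of the summits with the highest signal values of each kind, all in both replicates' own peak lists, 30 bases around the summit follow. They are read 5′ to 3′ on the strand of the host gene from the RefSeq WBcel235 (ce11) genome, and the capital letter marks the summit base. The first 4 are from 5′ UTRs, at chrIII:3456407-3456436 (plus strand), chrII:5373427-5373456 (minus), chrV:4169830-4169859 (minus) and chrV:16405561-16405590 (plus).
C34C12.2: ctgcagactttttgcGcgatgcaagcgcgc
agt-2: agagatatacaactGctgacgtcttttcgg
Y45G5AM.7: cgcgctctaacgcgAagcggggtcattcaa
syp-1: aggcaatctgcaaatTtgcgccgcggtgtt
The next 4 are from 3′ UTRs, at chrV:14351143-14351172 (plus), chrIII:1419943-1419972 (minus), chrV:1875676-1875705 (minus) and chrIII:2811557-2811586 (plus).
cept-2: atgatttctagtcgcAcgaccggcggttcc
lelo-2: attattatttgtttTcccatttcatctcta
zig-11: aaattcaagaaattTcacttttctccccga
Y71H2AM.3: tgttgcatcctatttTtattcatttttcct
G and C made up 43.3% to 60.0% of the 30 bases at the 4 sites in 5′ UTRs. At the sites in 3′ UTRs they made up 23.3% to 33.3%, except at cept-2, where the share was 56.7%. Over 100 bp both kinds overlapped, with 41% to 50% at the 4 sites in 5′ UTRs and 29% to 59% at those in 3′ UTRs. These 8 are examples from part of the genome and not a comparison of the kinds.

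Relative to the sequence available, UTR summits were denser than those between genes, in introns and in coding exons, and far less dense than those in promoters or near small RNA genes. The UTR bases that met the rule came to 3083874, or 3.08% of the nuclear genome, and held 67.1 summits per Mb. The density was 59.3 per Mb in 5′ UTRs and 68.2 in 3′ UTRs, against 53.9 per Mb over the whole genome, promoters included. It was 154 in promoter windows and 734 near small RNA genes outside those windows. It was 38.5 per Mb between genes, 28.2 in introns and 13.4 in coding exons. Each summit was counted, also within groups of overlapping peaks. Such groups held 24.6% of UTR summits, 9.96% of those between genes, 11.7% in introns and 22.9% in coding exons. With 1 summit per group, 171 UTR summits were left. The rule removed more UTR summits than it kept: 443 summits lay in a UTR in all, and 217 of them were in a promoter window, 155 of these in a 5′ UTR. Another 11 lay in a coding sequence of another transcript and 8 near a small RNA gene. The number in 5′ UTRs depended on the window: it was 40 with a window from 200 bp upstream to 100 bp downstream and 8 with a window from 1000 bp upstream to 500 bp downstream. At the border of the rule were the summit in pck-2, 9 bp beyond the window with a signal value of 199, and that in rsks-1, 13 bp within it with 201.

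Most UTR summits were low. The signal value is the authors' own measure of the height of a peak, on a scale that the sources used here do not state. It was used only to rank and describe peaks, and across all peaks with a value in both replicates the value in the joint list was close to the sum of both replicates' values (median quotient 0.995). The median was 138 over the 207 UTR peaks, 199 for those in 5′ UTRs and 135 for those in 3′ UTRs. The same list had medians of 283 at promoters, 184 between genes, 144 in introns and 127 in coding exons. Only 43 UTR peaks, 10 in 5′ and 33 in 3′ UTRs, stood above the median of the whole list, which was 211, and 3 reached its top 10%. With 2 replicates of 1 group there is no test between samples, and peaks are not replicates, so these medians are descriptions.

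**Figure D1:**
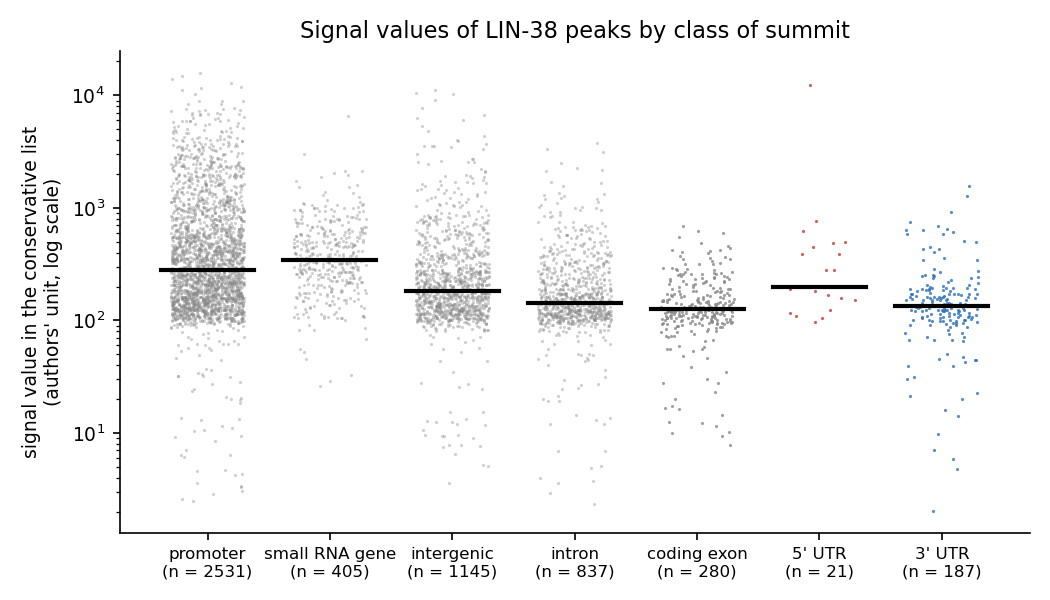
Signal value of each nuclear peak of the conservative list (vertical axis, authors' unit, log scale) by the class of its summit. Each point is 1 peak and the bar is the median; UTR medians were 199 (5′) and 135 (3′) against 283 at promoters, and 1 peak in a 5′ UTR, at C34C12.2, reached 12462.

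In the lists made from each replicate alone UTR peaks appeared less often than promoter or intergenic peaks, about as often as intron peaks and more often than coding exon peaks. Of the 207, 95 (45.9%, 39.2 to 52.7) overlapped a peak in both replicates' own thresholded lists by at least 1 bp, while 64.6% of all nuclear peaks did. In neither own list were 60 (29%, 23.2 to 35.5), beside 17.5% of all peaks. The share in both lists was 61.9% (40.9 to 79.2) for 5′ UTR peaks and 43.9% (36.9 to 51) for 3′ UTR peaks, and it was 75.3% at promoters, 57.5% between genes, 45.5% in introns and 35.7% in coding exons. It followed height: the 95 peaks in both lists had a median signal value of 195, and the 60 in neither had 108, with none above 152. These intervals, and those below, cover counting error over peaks or genes only.

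Where both replicates had a value in their longer ranked lists, the values were close. This held for 205 UTR peaks, whose medians were 72 in replicate 1 and 72.5 in replicate 2. On the log2 scale replicate 1 minus replicate 2 had a median of -0.03 (SD 0.52 over peaks), and 193 of the 205 lay within 1.5-fold. More than 2-fold apart were 3 peaks, in W08E12.7, mnk-1 and tos-1, all of them in a group of overlapping peaks. They are named because of these values, and all had their higher value in replicate 2. The SD of the log2 ratio was smaller over all nuclear peaks, at 0.40, and at promoters, at 0.36. The joint list keeps peaks that agree between the replicates, so part of the closeness was fixed by that choice.

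**Figure D2:**
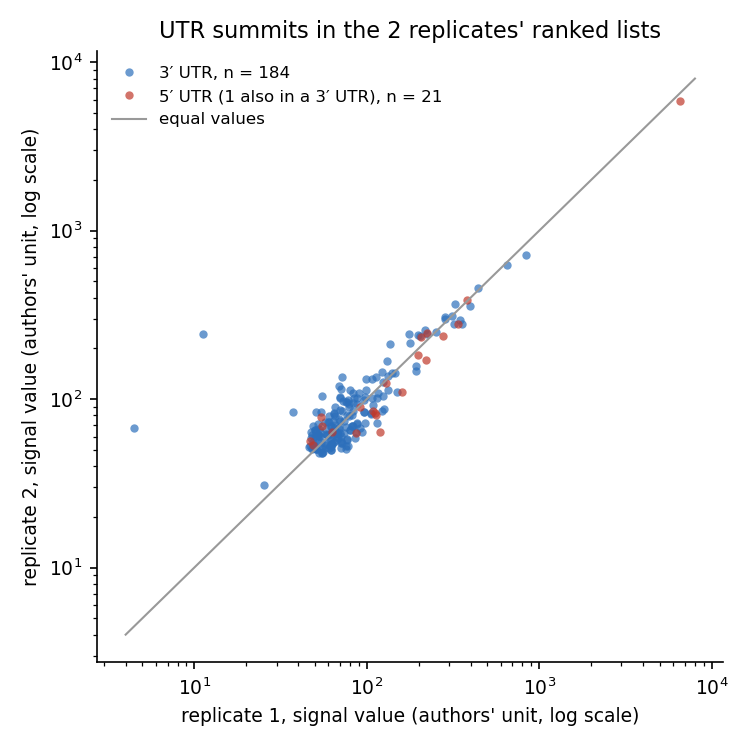
Signal value of each UTR peak in replicate 1 (horizontal axis) and replicate 2 (vertical axis), both from the replicates' ranked lists on log scales, with the line of equal values. Of the 205 peaks with both values 193 lie within 1.5-fold of each other, and C34C12.2 stands alone at the top right with 6586 and 5904.

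The sites in 5′ UTRs are led by C34C12.2, whose peak ranked 5 of all nuclear peaks. Replicate 1 gave a signal value of 6586, replicate 2 gave 5904, and the joint list has 12462. The peak covered chrIII:3456170-3456689 with its summit at 3456422, inside the first exon, 2636 bp after the annotated 5′ end of the transcript and 178 bp before its start codon. The long annotated UTR, 2814 bp, contains a whole gene on the same strand, C34C12.1, from 3454345 to 3455850. The summit lay 572 bp past the end of that gene. No summit lay in the promoter window of C34C12.2 itself.

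The other sites in 5′ UTRs were far lower. Over all 21 the median absolute log2 ratio between replicates was 0.27, against 0.16 at C34C12.2. At agt-2, which encodes a DNA repair alkyltransferase, the values were 381 and 387 in replicates 1 and 2, and 770 in the joint list. Y45G5AM.7 had 339 and 279, and ZK484.6 had 277 and 237. All 3 summits were in the first exon, 245 to 393 bp from the 5′ end. egl-30, which encodes the Gq alpha subunit of heterotrimeric G proteins, had 225 and 246. Its summit lay 283 bp inside the transcript and 1263 bp before the start codon, and a separate summit in its promoter window had a joint value of 1317. At syp-1, which encodes a component of the synaptonemal complex that holds paired meiotic chromosomes together, the values were 207 and 234. That summit lay 1302 bp from the 5′ end and only 187 bp before the start codon. sec-61.A, for the alpha subunit of the translocation channel of the endoplasmic reticulum, had 197 and 184.

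A synMuv A gene was among them. lin-56, which acts in the same class as lin-38, had values of 222 in replicate 1 and 170 in replicate 2, and 388 in the joint list. The peak covered chrII:10450492-10450766, with the summit 620 bp from the annotated 5′ end and 143 bp before the start codon of a 763 bp UTR. It stood by itself: the nearest other peak of the list was 52233 bp away, and lin-56 had no promoter peak. Of the 4 synMuv A genes lin-56 was the only host of a UTR summit, and the only promoter peak was at lin-38, the tagged gene.

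Of the lower sites, R08C7.12 had values of 129 and 124, and skr-17, a gene for a Skp1-related component of ubiquitin ligases, had 160 and 111. At pck-2, for a phosphoenolpyruvate carboxykinase, they were 113 and 80.2, and at Y55F3BR.11 they were 109 and 84.9. Of the 12 sites so far all were in both replicates' own lists except Y55F3BR.11, which was in replicate 1's only. Next came shc-1, for a Shc-family signalling adaptor, with 91.1 and 90.3, F22D3.4 with 111 and 82.6, and F56H6.2 with 120 and 63.6. From rsp-1, at 86.4 and 62.6, downwards the remaining 6 had joint values of 96.7 to 152. Apart from din-1, which encodes a corepressor that partners the nuclear receptor DAF-12, those 6 were in neither replicate's own list.

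The summits in 5′ UTRs were mostly near the start codon, as were many of the bases that met the rule. The median distance was 176 bp to the start codon and 495 bp from the 5′ end of the transcript, and 16 of 21 (76.2%, 54.9 to 89.4) were nearer to the start codon than to the 5′ end, beside 63.8% of eligible 5′ UTR bases. Of the 21, 13 lay within 250 bp of the start codon (61.9%, 40.9 to 79.2), beside 38% of those bases. The rule fixes part of this, since no summit could lie within 200 bp downstream of any 5′ end. The first exon of the transcript held 19 of the summits and 74.3% of those bases, and 17 were in a first exon that also holds the start codon. The exceptions after the first exon were F26F12.3 and noca-1, which encodes a protein needed for microtubule arrays that do not start from centrosomes. In noca-1 the summit was 10060 bp from the 5′ end and 169 bp before the start codon. The host UTRs spanned a median of 805 bp, introns included, against 624 bp for the longest 5′ UTR of the 1254 genes with any 5′ UTR base that met the rule. None of the 21 came within a promoter window when it was drawn from the 5′ ends of the RefSeq annotation.

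**Figure D3:**
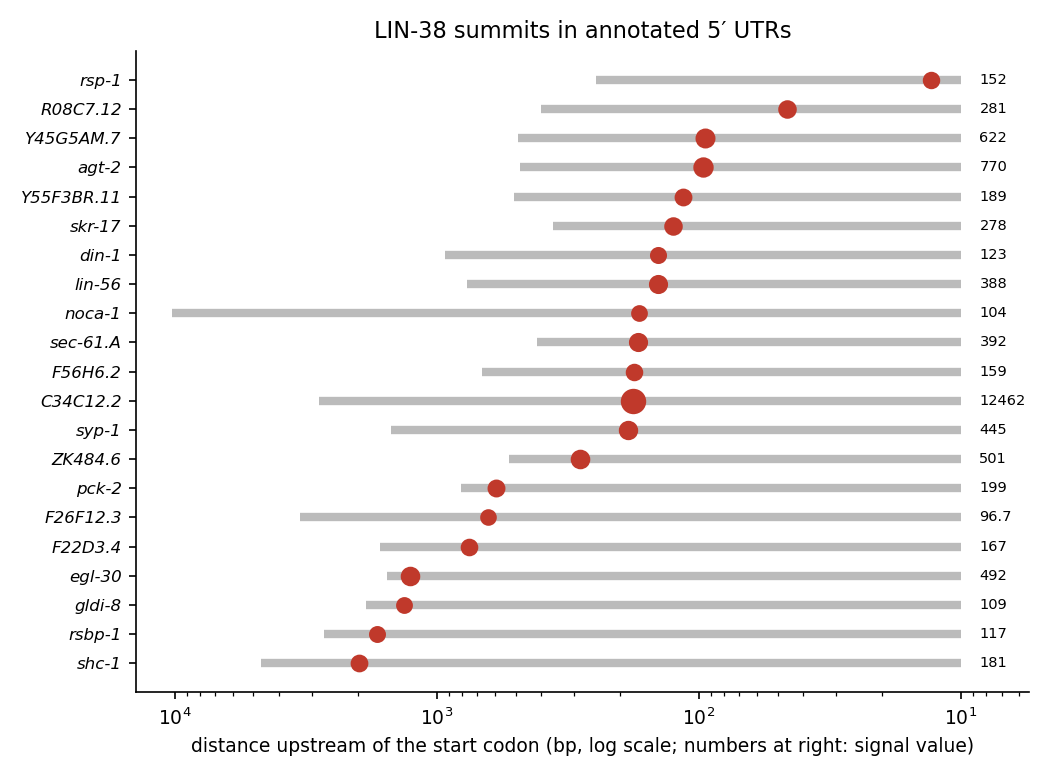
Each row is 1 of the 21 genes with a summit in its 5′ UTR, with the distance upstream of the start codon in bp on a log axis that runs towards the start codon at the right. Grey bars run from the annotated 5′ end to 10 bp before the start codon, red points mark the summits, larger for higher signal values, and the joint signal value is printed at the right; 13 of the 21 points lie within 250 bp of the start codon.

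Genes with a 5′ UTR summit had a promoter peak as well in 7 of 21 cases (33.3%, 17.2 to 54.6). Of all 1254 genes with eligible 5′ UTR bases, 10.8% had a promoter peak. The other 14 genes had no summit within 500 bp upstream to 200 bp downstream of any annotated 5′ end. C34C12.2, agt-2, Y45G5AM.7, ZK484.6, syp-1, sec-61.A and lin-56 were all of this kind. The longest eligible 5′ UTR stretch had a median of 562 bp in the 21 hosts, against 122 bp over the 1254 genes. The part of length in the shares with a promoter peak was not tested.

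The highest sites in 3′ UTRs were at genes of varied function, and all 25 named by height were in both replicates' own lists. Y47H9C.12 had values of 833 in replicate 1 and 718 in replicate 2, and 1558 in the joint list. Its summit at chrI:11897321 was 359 bp past the stop codon and 226 bp before the 3′ end. It is also 1 of only 2 UTR summits, with that of ekl-1, that fell in a promoter window drawn from RefSeq 5′ ends. At cept-2, which encodes an enzyme of phospholipid synthesis, the values were 653 and 627. That summit lay 717 bp past the stop codon and 551 bp upstream of the next gene on the same strand, vha-13, for a subunit of the vacuolar proton pump. lelo-2 had 444 and 455, in a UTR of only 121 bp.

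Next in height came a run of sites with closely matching values. zfr-1, for a zinc finger RNA-binding protein, had 399 and 356 in replicates 1 and 2, and slc-25A46, for a mitochondrial carrier family protein, had 325 and 368. Y105E8B.6 had 349 and 297, and lpr-1, for a lipocalin-related protein, had 358 and 280. At ekl-1, which encodes a Tudor domain protein of small RNA pathways, they were 313 and 311. In zig-11, for an immunoglobulin domain protein, the values were 285 and 308, in Y71H2AM.3 they were 285 and 300, and in F25H2.4 they were 322 and 278. Each of the last 3 genes faces a convergent neighbour with a promoter peak of its own: cct-7 (a chaperonin subunit), tufm-1 (a mitochondrial translation elongation factor) and ndk-1 (a nucleoside diphosphate kinase).

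Other named hosts followed in the same range of values. ceh-8, a homeobox gene, had 251 in each replicate. lin-29, whose zinc finger factor drives the larval-to-adult switch, had 203 and 238, and tlp-1, for a zinc finger factor of tail development, had 149 and 110. The tlp-1 summit was the most isolated of all UTR summits, 76062 bp from the nearest other peak. hrde-1, for the nuclear Argonaute of inherited RNA interference in the germ line, had 192 and 158. car-1, for an RNA-binding protein of germ granules, had 136 and 213, and klp-18, for a kinesin of the meiotic spindle, had 131 and 169. At mcm-4, for a subunit of the replicative helicase, the values were 198 and 240. The ratio between replicates was largest at car-1 among the 25, where log2 was -0.64.

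The remaining named hosts had values of 98.4 to 257 in either replicate. tir-1, for the worm SARM protein of innate immunity and neuronal fate, had 217 and 257, and its summit was 30 bp from the 3′ end, opposite the ribosomal protein gene rpl-3. nra-1 had 98.4 and 114 and lies opposite hsp-1, for a constitutive Hsp70 chaperone. W08E12.7 had 177 and 242, W09G3.6 had 179 and 215, C05D11.8 had 194 and 146, and bed-2 had 122 and 144. cdc-48.1, for a AAA ATPase that extracts ubiquitinated proteins, had 145 and 143, at the last base of its annotated 3′ UTR.

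The summits in 3′ UTRs were placed towards the distal part of the UTR. The median distance was 258 bp from the stop codon and 132 bp to the 3′ end. Of the 187, 123 (65.8%) were nearer to the 3′ end than to the stop codon, beside 50.3% of the 3′ UTR bases that met the rule. The excess was in the middle of the distal part and not at the very end. With each UTR divided into 10 equal bins, the last 4 bins held 56.1% of summits and 40.3% of bases, but the last bin alone held 11.2% and 10.9%. Within 100 bp of the 3′ end were 40.1% of summits and 40.7% of bases, but these shares depend on the length of the UTR. UTRs with a summit spanned a median of 429 bp, against 138 bp for the longest 3′ UTR of all genes with eligible 3′ UTR bases. No test was made over summits.

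**Figure D4:**
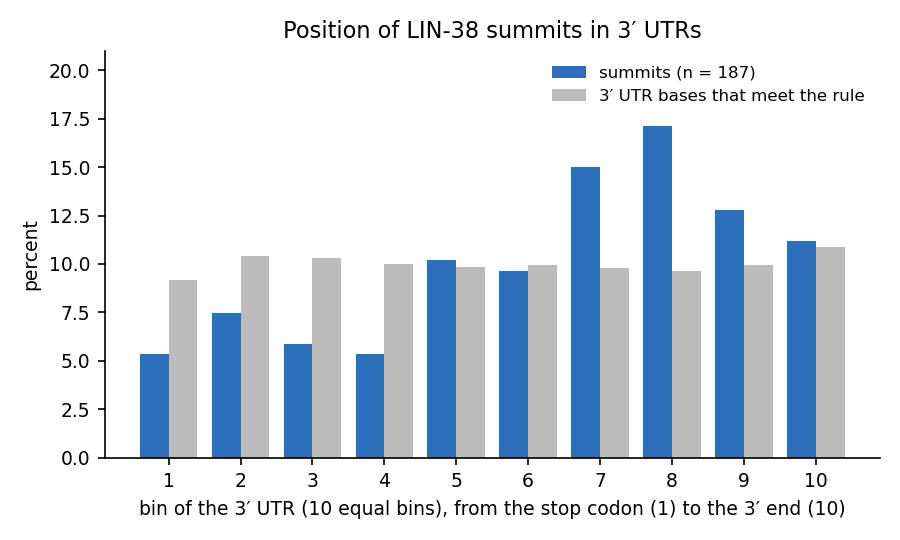
Percent of the 187 summits (blue) and of the 3′ UTR bases that met the rule (grey), in 10 equal bins along the UTR from the stop codon (1) to the 3′ end (10). Summits were most frequent in bin 8, with 17.1% of summits against 9.66% of bases, and bin 1 held 5.35% against 9.17%.

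Genes with a 3′ UTR summit often had a promoter peak too. This held for 86 of 180 host genes (47.8%, 40.6 to 55), beside 14.8% of the 14173 genes with 3′ UTR bases that met the rule. Over both kinds of UTR it was 93 of 199 hosts (46.7%, 39.9 to 53.7), also beside 14.8% of the 14388 genes with any such base, and 1.38% of those genes hosted a UTR summit at all. Host genes had longer stretches of eligible 3′ UTR, with a median of 370 bp against 121, and the part of length in the result was not tested. By length, the share with a promoter peak was 45.2% against 12.6% for stretches up to 200 bp, 56.9% against 18.8% from there to 500 bp, and 41.1% against 23.4% above that. On the autosomes alone it was 48.3% against 16.4%. With a narrow promoter window, 200 bp upstream to 100 bp downstream, the share of 3′ hosts was 24.3%, beside 9.03% of the 16182 genes then eligible.

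The promoter peak was usually the higher of the pair, exceeding the 3′ UTR peak in 74 of 86 genes. At cdc-48.1 the promoter peak had a joint value of 15912 and the 3′ UTR peak 277, and at hrde-1 they had 2611 and 345. The pairs at cept-2 (4288 and 1266) and mcm-4 (798 and 427) were less unequal. In 12 genes the UTR peak was higher, as at Y47H9C.12, with 184 at the promoter and 1558 in the UTR, and car-1, with 331 and 359. The height of the 3′ UTR peak did not follow the presence of a promoter peak: the median was 133 over the 92 peaks in genes with one and 137 over the 95 in genes without. Peaks in both replicates' own lists made up 51.1% of the first set and 36.8% of the second.

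Most hosts of a 3′ UTR summit belonged to a convergent gene pair, here a host and a 3′ neighbour on the opposite strand. The next gene past the 3′ end was on the opposite strand for 134 of 180 hosts (74.4%, 67.6 to 80.3), beside 55% of all genes with eligible 3′ UTR bases. These 134 hosts stood in 124 distinct gene pairs, 10 of which are counted from both genes. The annotated ends were mostly close, with a median gap of -9 bp (an overlap) against 24 bp, and 61.2% overlapped against 45.7%. Gaps of the hosts ran from -10964 to 5411 bp, so not all of these pairs meet at their 3′ ends. By length of eligible stretch the convergent share was 92.9% against 56.5%, 70.8% against 52% and 67.1% against 50.2% in the same order as above. A following gene on the same strand was found for 45 hosts (25%), beside 44.9%. With the narrow promoter window the convergent share was 61.9%, beside 48.6% of the 16182 genes then eligible.

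The facing gene had a promoter peak about as often as the host. Of the 134 convergent neighbours 70 (52.2%, 43.8 to 60.5) had a promoter peak, beside 14.9% over all convergent pairs. Either gene had a promoter peak for 71.6% of the 134 hosts, beside 25.4%, and both did in 26.1%, beside 4.31%. For hosts with a gene on the same strand downstream the neighbour had a promoter peak in 13 of 45 cases (28.9%, 17.7 to 43.4), beside 10%. Among the named hosts, mcm-4 overlapped ekl-7 by 15 bp, and both had promoter peaks. lelo-2, tir-1, zig-11 and nra-1 had none of their own and faced a gene that did. The 38 hosts (28.4%) without a promoter peak at either gene of the pair included lin-29, whose neighbour hmg-12 had none.

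**Figure D5:**
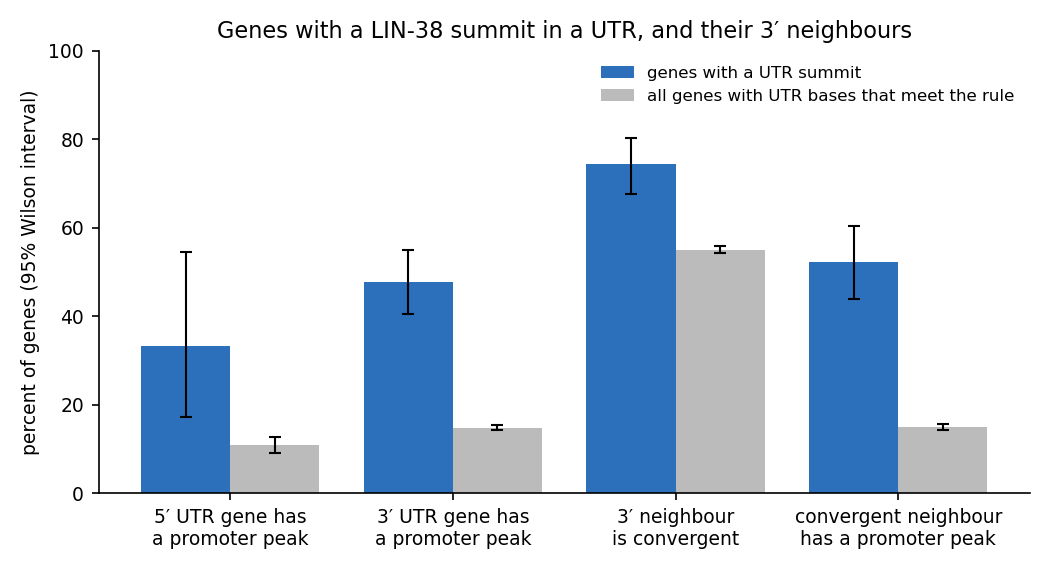
Percent of genes with a UTR summit (blue) and of all genes with UTR bases that met the rule (grey) that had the property named below each pair of bars, with 95% Wilson intervals as error bars. For 3′ UTR hosts the blue bars are 47.8%, 74.4% and 52.2%, against grey bars of 14.8%, 55% and 14.9%; the 5′ UTR bars are 33.3% and 10.8%.

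Although outside promoter windows, some of the sites lay within 1000 bp of a start. The median distance from a UTR summit to the nearest annotated 5′ end of a protein-coding gene was 1521 bp, with 66 of 207 within 1000 bp. Of the 187 in 3′ UTRs, 38 lay upstream of the nearest 5′ end and that end belonged to another gene, as with cept-2 and vha-13. Another noncoding gene or a pseudogene lay within 200 bp of 13 UTR summits. The matching shares over all eligible UTR bases are not given here, so these counts cannot be read as particular to the summits.

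The lowest UTR summits all lay beside another summit. Of the 207, 51 (24.6%) lay in a group of overlapping peaks, beside 10.8% of all nuclear peaks, and the 207 summits fell into 194 separate groups. In 13 groups a pair of UTR summits lay 199 to 215 bp apart, in 2 of them within the same deposited interval and in the others in separate overlapping peaks, with a median joint value of 42.4 for the lower. At the heterochronic gene lin-66 the pair had joint values of 114 and 44.3, 199 bp apart, while the values assigned from the replicates were 50.5 and 50.3 for the first and 54.7 and 50.3 for the second. All 19 UTR peaks with a joint value under 50 lay in such groups, all in 3′ UTRs, and 18 of them had a replicate value above the joint value. In 17 of the 19 a replicate's value came from a summit over 100 bp away. Without peaks in groups the medians were 279 in 5′ and 151 in 3′ UTRs. A width of exactly 376 bp, the median of the whole list, was shared by 64.7% of UTR peaks and 49.3% of all peaks.

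The autosomes held nearly all UTR summits. Chromosome X had 6, all in 3′ UTRs, which is 2.9% of the 207, although it holds 20.2% of the UTR bases that met the rule. The density was 9.64 per Mb on X and 81.6 per Mb of such bases on the autosomes. Chromosome I had the highest density, 120 per Mb with 56 summits, followed by chromosome III with 95.8. All nuclear summits were also sparse on X, which had 7.79% of them.

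Of the genes with eligible UTR bases in 5 lists around LIN-38 (synMuv A, DREAM, other synMuv B, vulval signalling and Hox genes), 2 of 54 hosted a UTR summit (3.7%, 1.02 to 12.5), beside 1.38% of all such genes. Among 8 DREAM genes the only host was lin-35, the worm Rb gene. Its 3′ UTR summit at chrI:5815545 had values of 106 in replicate 1 and 81.9 in replicate 2, with a joint value of 194, and was in replicate 1's own list only. Its end overlaps that of hmg-3, which encodes a subunit of the histone chaperone FACT. Both had promoter peaks, with a value of 4791 at lin-35, and all 8 DREAM genes had a promoter peak, beside 14.6% of all protein-coding genes. No host was found among 11 other synMuv B genes, 31 genes of vulval EGF, Ras, Notch and Wnt signalling, or 6 Hox genes, of which 4, 6 and 0 had a promoter peak.

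Developmental timing genes contributed 3 hosts in a small list of 11, all 11 with eligible UTR bases, beside 1.38% of all genes with such bases. Besides lin-29 and lin-66 these were alg-1, which encodes an Argonaute of the microRNA pathway, with values of 75.8 and 52.6 and a joint value of 133. The alg-1 and lin-66 peaks were in neither replicate's own list. Of 269 nuclear hormone receptor genes, 213 had eligible UTR bases and nhr-4 was the only host. Its joint value was 15.9, beside 55.3 and 47.8 in the replicates. A promoter peak was found at 16 of the 269. None of 78 cytosolic ribosomal protein genes was a host, 46 of them had UTR bases that met the rule, and 67 had a promoter peak. With 1.38% of all eligible genes as hosts, the absence of a host among 46 carries little weight. None of 156 collagen genes or 72 histone genes was a host, and 120 of the collagen genes but only 5 of the histone genes had eligible bases. These promoter counts too stand beside 14.6% of all genes, and the host counts beside 1.38% of the genes with eligible UTR bases.

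Summit windows were richer in G and C than UTRs at large, but 3′ UTR summits were not richer than the windows beside UTR summits. In 100 bp windows centred on the summit the median G and C content was 42.0% for 5′ UTR summits and 36.0% for 3′ UTR summits. Windows at every 50th eligible base had 35.0% in 5′ UTRs and 31.0% in 3′ UTRs, and windows 300 bp to each side of the UTR summits had 37.0%. Promoter summits had 45.0%.

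Most of the 14 patterns searched were at similar or low shares in both kinds of UTR, and those in 5′ UTRs rest on few windows. Among the exceptions, TATAAA was in 0% of 5′ and 16% of 3′ UTR summit windows, and AATAAA in 4.76% and 31.6%. Across eligible bases TATAAA was in 11.4% of 5′ and 15.4% of 3′ UTR windows, and AATAAA in 22% and 40.4%. The share of TATAAA at 3′ UTR summits was thus near that of 3′ UTRs at large. The 5′ UTR values were 0 and 1 of 21 windows, with intervals that reached 15.5% and 22.7%. The letters CTGCGTCT, known from worm promoters near start sites of RNA polymerase II, were found on either strand in 3 of 21 windows in 5′ UTRs (14.3%, 4.98 to 34.6), at egl-30, lin-56 and gldi-8. They were in 7.27% of promoter summit windows, 0.776% of windows across eligible 5′ UTR and 1.6% of windows at 3′ UTR summits. The windows 300 bp to each side of UTR summits of both kinds held them in 0.242%. GAGAGA was in 28.6% (13.8 to 50) of 5′ UTR windows, 15% of promoter windows and 6.32% of eligible 5′ UTR windows. At 3′ UTR summits it was in 10.2%, with 6.96% across eligible 3′ UTR. These letters can occur within longer repeats of the same motif, and the windows that held CTGCGTCT in 5′ UTRs all held GAGAGA too.

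At 3′ UTR summits the commonest pattern was the poly(A) signal AATAAA, in 31.6% of windows (25.3 to 38.5). It was less frequent there than across eligible 3′ UTR, where 40.4% of windows held it on either strand. In the windows 300 bp to each side of UTR summits the share was lower, at 21.7%. Those windows belong to summits of both kinds and can lie outside the UTR, so the 2 sets are not alike. TTTGAA and TTCGAA, core letters of the cell cycle homology region bound by DREAM, were in 21.4% and 3.74% of 3′ UTR windows. Across eligible 3′ UTR they were in 30.4% and 5.62%. In 5′ UTR summit windows TTTGAA was in 19% and TTCGAA in 14.3% (3 windows, 4.98 to 34.6), beside 29.4% and 6.07% across eligible 5′ UTR. The E2F forms GCGCGAAA and GGCGGGAA were in 1.6% (3 windows) and 0.535% (1 window) of 3′ UTR summit windows, beside 0.168% and 0.327% across eligible 3′ UTR. In all, 72.9% of UTR windows held at least 1 of the 14 patterns, and 66.2% of the windows beside them did. By kind it was 57.1% at 5′ UTR summits against 69.1% across eligible 5′ UTR, and 74.3% at 3′ UTR summits against 76.6%. A match is a description of the letters and not a binding site, and short patterns are common by composition alone.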

How the data were processed

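LIN-38-EGFP ChIP-seq peaks from 2 replicates of 1 group were used. The authors deposited ranked and thresholded peak lists on ce11 for each replicate and for both together, per the labels (aligner and peak caller: not given in the sources used here). Every peak as deposited has a signal value, a score (at least 830 in the conservative list) and a summit offset. The deposited conservative list held 5431 peaks, and 26 mitochondrial peaks were left out. Replicate values came from the overlapping peak with the nearest summit in each replicate's ranked list, so a value can belong to a neighbouring summit. There were 0 other columns of samples.

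Summits were placed by their single base in Ensembl release 115 (WBcel235), with 19973 protein-coding genes and 29314 annotated 5′ ends. Eligible UTR bases are those that meet the same rule. Sequences came from the RefSeq WBcel235 genome, for the 4 highest peaks of each UTR kind in both own lists, chromosome I left out. Patterns were matched exactly on both strands in 100 bp windows. Shares have Wilson 95% intervals. The 3′ neighbour is the next protein-coding gene past the 3′ end, and a gene that overlaps the host and reaches past that end comes first. Genes named were the hosts of the 15 highest 5′ UTR and 25 highest 3′ UTR peaks and members of the 10 gene lists; others are named where a small count or a border calls for it. The members and lists were chosen with earlier results of these data known. Assignment and pattern search were tested on made-up positions. Python 3.11.15, numpy 2.4.6, scipy 1.17.1 and matplotlib 3.10.9 were used. Alternatives changed the peak list, windows, position and replicates.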

Additional observations from a re-analysis of the deposited data

How the results depend on the processing

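Of 112 values under other settings, 87 stayed within 1.5 times (counts) or within the value's own interval or spread, and 25 moved. Peaks above the list's median left 43 summits (10 in 5′ and 33 in 3′ UTRs), a median signal value of 427, 97.7% in both own lists, 1170 bp to the nearest 5′ end, 83.7% with a pattern and 0% on X. The narrow promoter window gave 40 5′ UTR summits, 1061 bp, 24.3% of 3′ hosts with a promoter peak and 61.9% convergent. The wide window, 1000 bp upstream to 500 bp downstream, gave 8, a median signal value of 129 and 1804 bp. Leaving out a replicate gave 146 to 149 UTR summits, 15 to 17 of them in 5′ UTRs, which overlapped only 100 to 109 of the 207 reported, median signal values of 84 to 86.9, 64.4% to 69.2% in both own lists, distances of 1366 to 1492 bp, and 37.5% (without replicate 1, beside 13.1% of all genes) to 45% of 3′ hosts with a promoter peak. A single replicate's list has lower values by construction. Its peaks are already in that replicate's own list, so their share in both lists is not comparable with the reported share. Midpoints gave a median signal value of 142, an overlap of at least 50% gave 38.2% in both lists, and 200 bp windows gave 91.8% with a pattern. Chosen after seeing the data, 1 summit per group gave a median of 151 and RefSeq 5′ ends left 205 summits. The other thresholded series list also gave 207, overlapping 162 of those reported. No paired analysis was possible because there is 1 group. Depth is unknown, the control was not analysed here, and the number of replicates allows no test.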
